A study of Eohaustorius estuarius with 16 samples.

Results

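The array of laboratory F carried 50 contigs, the assembled transcripts of the amphipod Eohaustorius estuarius, that were each printed on 10 or 11 spots. They were chosen by counting how often a probe name occurs among the spots that are not controls, without use of any signal, and make up 50 of the 8507 contigs on the array. Of these, 43 stood on 11 spots and 7 on 10, against 2 spots for 6208 contigs and 1 spot for 2249. Together the 50 contigs took 543 of the 15208 spots. The files used here give them no gene name, no function and no probe sequence, so they are called by contig number and their biological roles are not described.

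Whole bodies were compared between amphipods kept for 10 days in sediment with cyfluthrin at a nominal 1.6 µg/kg and amphipods kept for 10 days in sediment with solvent only. There were 8 samples of each group, each measured on 1 one-colour Cy3 array in a study of how microarray results compare between laboratories. The labels give neither age nor sex of the animals and are silent on whether each sample stands for its own container or animal. The p-values therefore cover no more than the spread among the 16 samples at hand. A whole-body sample mixes all tissues, so fewer cells of a type and less RNA per cell cannot be told apart.

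Cyfluthrin is a pyrethroid insecticide, a class that keeps voltage-gated sodium channels of neurons open and is toxic to arthropods. On a microarray, spots with 1 probe at different places of 1 array see the same labelled RNA, so their spread measures printing, hybridisation at that place and scanning. It does not contain the preparation and labelling of the RNA, nor differences between animals, which appear only between arrays. The spots of 1 array are therefore not replicates of a sample.

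Spots of 1 contig were scattered over the array, a grid of 192 rows and 82 columns. The distance in rows between the first and the last spot of a contig had a median of 164 and was at least 96. Over the 16 arrays the 50 contigs gave 8688 spot measurements. Of these, 219 (2.52%) carried an outlier mark and were left out, against 43 of 234640 (0.0183%) for contigs on 1 or 2 spots. All 219 marks of the kind that sets a spot against its copies fell on the 50 contigs. A contig on 1 or 2 spots has at most 1 copy to compare with, so these shares are no contrast between kinds of contig. No member spot was saturated. In 609 spot measurements (7.01%) the scanner software did not find a positive and significant signal and the processed signal was a floor value near the error. Such floor values touched 121 of the 800 combinations of contig and array, and 24 contigs had none.

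Identical spots could differ in whether they passed the background. In 544 of the 800 combinations every spot was well above background and in 105 no spot was. In the other 151 (18.9%), which came from 33 contigs, the spots of 1 array were split. With a contig taken to pass where at least 50% of its spots did, 21 of the 50 contigs passed on all 16 arrays and 18 on 8 or more, so that 39 were tested for cyfluthrin. The remaining 11 were not tested, and 2 of them were above background on no array.

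The spread between spots fell with the signal. It is given as the standard deviation (SD) of log2 processed signal between the spots of 1 contig on 1 array, pooled over the 679 combinations without floor values. Below a signal of 10 scanner units it was 0.437. Between 10 and 30 it was 0.215, and between 30 and 100 it was 0.111. It fell further to 0.0696 between 100 and 300 and to 0.0557 between 300 and 1000. At 1000 or more it was 0.0468, where 25 combinations of 5 contigs lay. A typical brightest spot was thus 2.43 times its dimmest copy in the lowest class and 1.099 times in the highest.

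In the combinations without floor values, the error that the scanner software gives for a single spot followed the measured spread only for dim spots. It was 1.07 times the spread below a signal of 10 and 1.001 times between 10 and 30. For brighter spots the estimate levelled off at 0.144 while the measured spread went on falling, so that it was 2.08 times the spread between 100 and 300 and 3.08 times at 1000 or more. The median coefficient of variation between spots was 26.3% in the lowest class and 2.74% in the highest. With floor values included, the software's error had a median of 1.43 times the spread in the 11 contigs not tested, and at most 7.80 times.

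**Figure D1:**
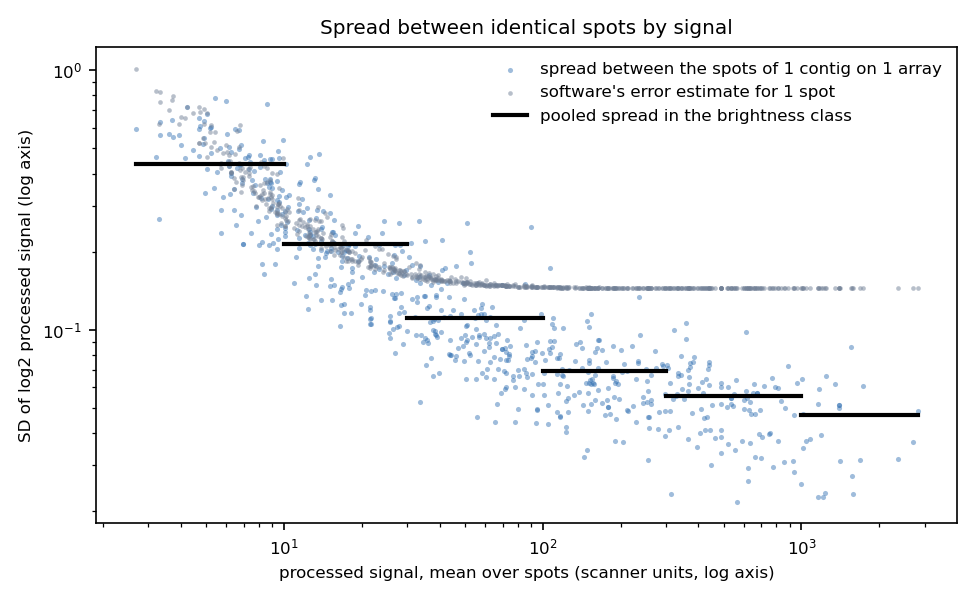
Spread between the spots of 1 contig on 1 array (blue points, 679 combinations without floor values) against the mean processed signal, both on log axes, with the scanner software's error for 1 spot (grey points) and the pooled spread of each brightness class (black bars). The pooled spread falls from 0.437 to 0.0468 while the software's error levels off at 0.144.

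Among the 50 contigs the pooled between-spot SD had a median of 0.202 log2 units. Its range went from 0.0352 in contig_5108 to 0.619 in contig_6150. The narrowest spreads belonged to contig_5108 and contig_1302, both well above background on every array. The lowest and highest spot of contig_1302 lay at 1.89 and 2.01 in control 4 and at 1.55 and 1.69 in cyfluthrin 7. These levels, like those that follow, are log2 processed signal minus the array's 75th percentile and are compared only within a contig.

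The widest spreads belonged to contig_6150 and contig_709 (0.543), which were not tested. On the array of cyfluthrin 7 the spots of contig_6150 ran from -7.41 to -4.57, and on that of control 6 from -6.26 to -4.74. It passed the background on 1 array, that of control 5, where its spots were tighter and ran from -3.66 to -2.75. In contig_709 the between-spot SD ranged from 0.0493 on its tightest array to 0.854 on its widest, and 14.8% of its spot measurements were floor values.

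A part of the spread was the same on every array. This fixed part made up a median of 7.40% of the between-spot variance. In the bright contig_1380 it reached 68.3% and in the bright contig_6524 it was 52.9%. It was 54.0% in contig_7105, which was above background on no array. A plane tilted over the array took a median of 0.447% of the remaining variance, and at most 2.73%.

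The level of a spot varied slightly with its place on the array. The array was divided into 9 zones, a division chosen after the values were seen, and the 21 contigs that passed the background on all arrays were compared over 228 spots, marked spots included. The 24 spots of the central zone were higher than the rest by 0.043 log2 units on average, with a range from -0.012 to 0.087 over arrays and a positive value on 15 of 16 arrays. This excess was 0.046 ± 0.028 (SD, n = 8) on control and 0.041 ± 0.026 (SD, n = 8) on cyfluthrin arrays, so that it differed between the groups by less than its spread over arrays. The zone beside it at the higher column numbers, with 22 spots, was the one farthest from the contigs' medians, at -0.081 on average and above 0 on 2 of 16 arrays, and at -0.014 with marked spots left out. This low zone is part of the rest against which the central zone was set. Measured from the contigs' medians the central zone lay at 0.034, and at 0.023 with marked spots left out. The zone of the lowest rows and columns then lay at 0.020. The software's outlier marks were concentrated in the central zone. There 10.7% of these spot measurements were marked, against 0.223% to 1.70% in the other zones, and 40 of the 41 marked central spots lay above the contig's median. These marks are of the kind that sets a spot against its copies, so contigs on 1 or 2 spots cannot show whether the zone affects them alike.

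The spread between spots was then set against the spread between samples. For the mean over all spots of a contig, noise estimated from the spots made up a median of 0.277% of the variance between samples of 1 group in the 39 tested contigs. It was under 1% in 29 of them and over 5% in 4. The lowest share, 0.0212%, was that of contig_4433 and the highest, 19.98%, that of contig_1184. With a single spot per contig, the variance was split into a median of 2.65% between spots, 90.4% between samples of 1 group and 4.20% between the groups. Standard errors of the group difference computed for 1 spot would be wider than those for 10 or 11 by a median of 1.01 times and at most 1.69 times, in contig_1184. With 2 spots, the number that most contigs of the array had, the median was also 1.01 times and the highest value 1.35 times.

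**Figure D2:**
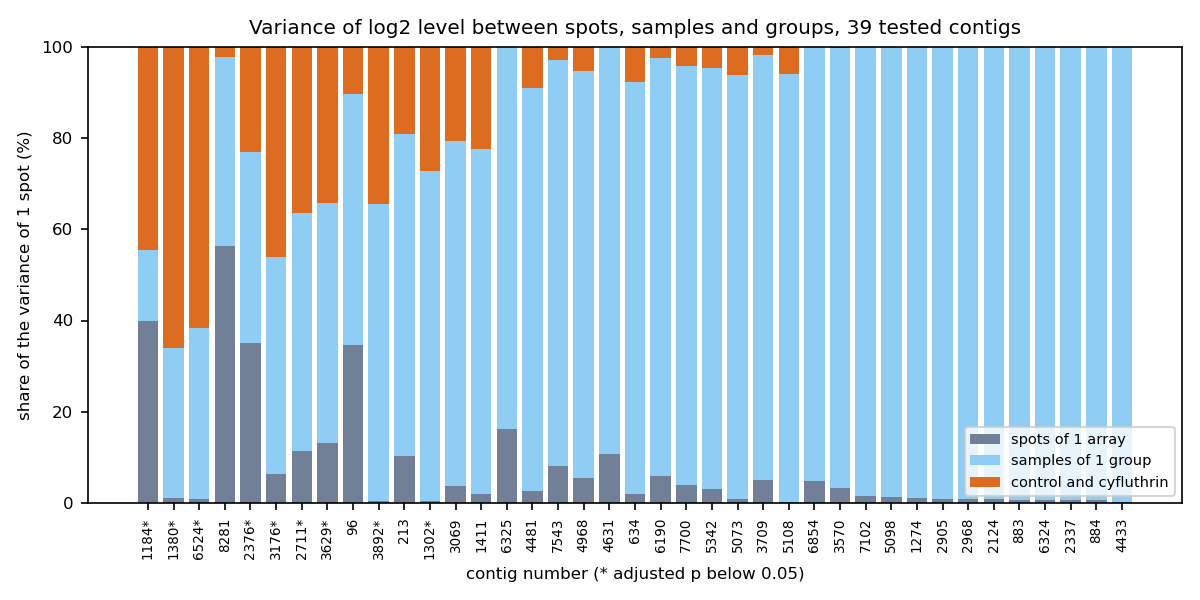
Share of the variance of a single spot, in percent, that lies between spots of 1 array (grey), between samples of 1 group (light blue) and between control and cyfluthrin (orange) for the 39 tested contigs, ordered by the share between samples. The share between spots has a median of 2.65% and reaches 56.3%, and stars mark contigs with an adjusted p below 0.05.

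The contig with the lowest share of noise shows what the many spots measure. In contig_4433 the 8 controls read -2.29, 1.11, 1.06, 0.34, 1.19, 0.70, -0.70 and -2.16. The 8 cyfluthrin samples read -0.24, -3.70, 1.53, 1.58, 0.21, 0.18, 1.65 and 0.93. Controls 1 and 8 and cyfluthrin 2 were low, and the groups overlapped over most of their range. Its between-spot SD was 0.0844, while the SD between samples of 1 group was 1.61. Even the highest of the 11 spots of cyfluthrin 2 (-3.46) lay far below the lowest spot of any other cyfluthrin sample (-0.32 in cyfluthrin 1). The group difference was 0.36 ± 0.74 (SE) and did not pass the test (limma adjusted p = 0.745).

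In contig_1184, the contig with the highest share of noise, the controls read -3.71, -4.25, -3.79, -4.01, -4.02, -4.12, -3.59 and -3.93. The cyfluthrin samples read -4.30, -4.77, -4.80, -4.99, -4.71, -4.60, -5.00 and -4.29. All cyfluthrin samples lay below all controls, with the lowest control at -4.25 and the highest cyfluthrin sample at -4.29. Single spots of 1 array had an SD of 0.369. The mean over the spots had a noise SD of 0.11, against an SD of 0.247 between the means of samples of 1 group. The gap between the groups was narrower than this noise SD of a mean. The background was passed on 12 of the 16 arrays. It was missed in control 7 and control 8, with 2 and 0 of 11 spots well above background. It was also missed in cyfluthrin 4 and cyfluthrin 6, with 4 and 5. The 75th percentile taken off was 0.70 log2 units higher on average in cyfluthrin samples than in controls. That gap was close in size to the difference of the group means, -0.76. The difference was smaller under the quantile and spike-in scalings described below.

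Differences between samples of 1 group were wide in many of these contigs. The SD between samples of 1 group was over 1 log2 unit in 16 of the 39 tested contigs (41.0%), against 8.00% of all 6852 tested contigs of the array. Its median was 0.63 in the 39 contigs and 0.42 in all tested contigs. Over all 50 contigs the SD was above 2 log2 units in 13, and the range of the 16 sample levels was above 5 in 16.

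The same samples were low in many contigs. In 10 of the 39 tested contigs (25.6%), controls 1 and 8 and cyfluthrin 2 were the 3 lowest of all samples, against 305 of 6846 contigs (4.46%) of the whole array with values on all arrays. These contigs were contig_883, contig_884, contig_1274, contig_2124, contig_2968, contig_4433, contig_4968, contig_6324, contig_6854 and contig_7102, a pattern chosen after the values were seen. The gap from the highest of the 3 to the lowest of the other 13 samples ran from 0.22 to 2.37 log2 units. In contig_884 the low samples read -6.18, -2.35 and -6.26, while the other 13 ran from -0.084 to 2.05. Floor values entered the levels of control 1 and cyfluthrin 2 in this contig, which are therefore limits of the measurement.

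A second set of samples was high in other contigs. In 5 of the 50 contigs, again picked by eye after the values were seen, cyfluthrin 1, 4, 5 and 6 and control 5 were the 5 highest samples. These were contig_603, contig_3456, contig_4861, contig_5342 and contig_7648, of which contig_5342 alone was tested. Among tested contigs the pattern was thus seen in 1 of 39, against 42 of 6846 (0.613%) on the whole array. Its 5 high samples read from -0.74 to 2.03 and the other 11 from -6.33 to -3.02. Since 4 of the 5 high samples were exposed, its group difference was 1.74, yet with an SE of 1.20 it did not pass the test (limma adjusted p = 0.276). Those 4 were the exposed arrays outside column 3 of the slides, where cyfluthrin 2, 3, 7 and 8 stood. A part of the array column in this pattern was not tested. Among the 4, cyfluthrin 5 and 6 may hold 1 RNA, as described below.

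**Figure D3:**
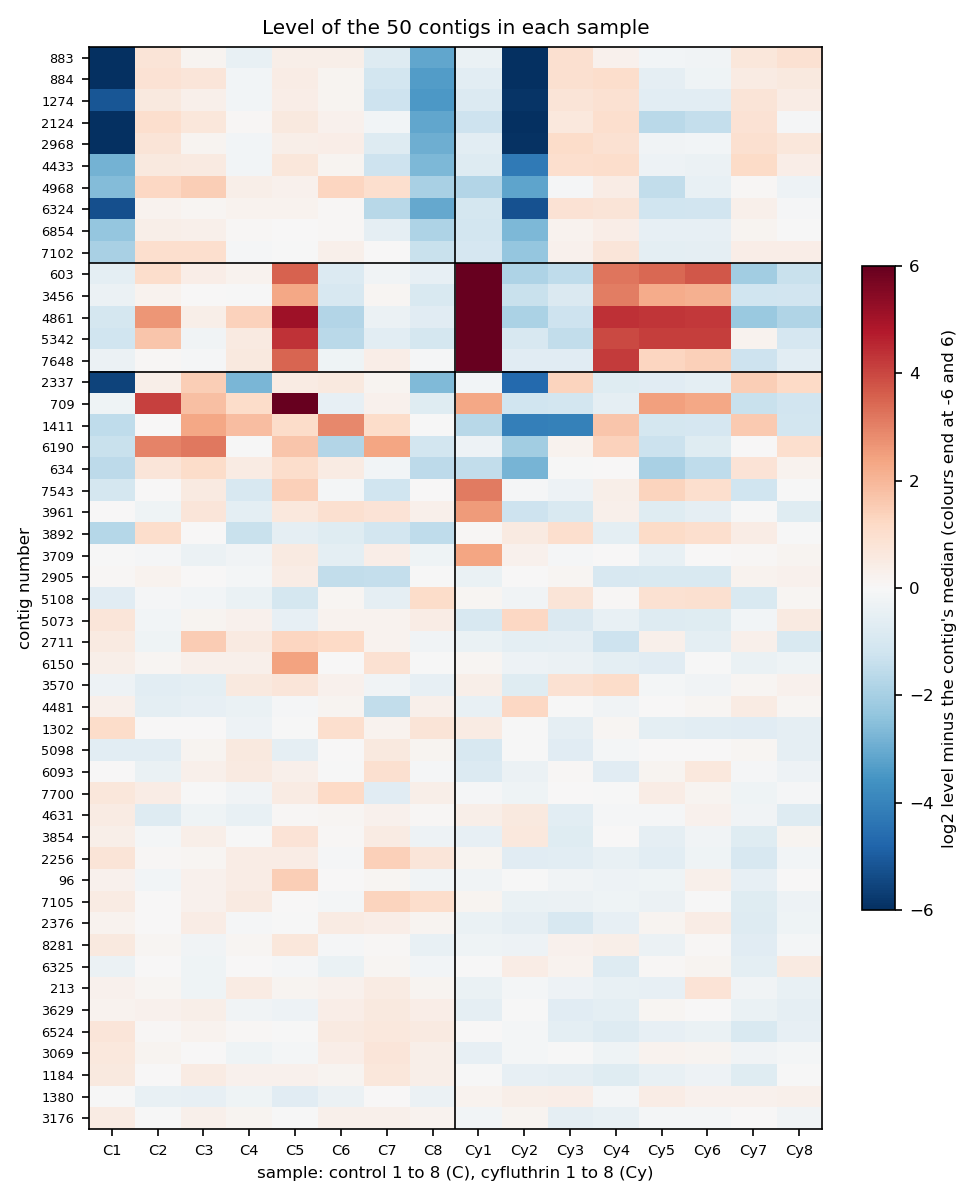
Level of the 50 contigs (rows) in the 16 samples (columns, controls C and cyfluthrin Cy) as log2 level minus the contig's median, with colours ending at -6 and 6. The top block holds the 10 contigs lowest in controls 1 and 8 and cyfluthrin 2, the second block the 5 contigs highest in cyfluthrin 1, 4, 5 and 6 and control 5, and the rest are ordered by the SD between samples.

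Cyfluthrin was compared with control by limma on the means over spots, with p-values adjusted over all 6852 tested contigs. Of the 39 tested contigs, 9 passed an adjusted p below 0.05, while 32.6% of all tested contigs did. Of these 9, 2 were higher with cyfluthrin, where 8.79% of all tested contigs were, and 7 were lower, where 23.9% were. At an unadjusted p below 0.05 there were 12 (44.6% of all). The median difference was -0.10 in the 39 contigs and -0.16 in all tested contigs. Whether the groups overlapped was also counted. In 1 of the 39 contigs, contig_1184, the groups did not overlap, against 5.42% of the 6846 contigs with values on all arrays.

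The largest rise past the threshold was that of contig_3892. Its controls read -1.22, 1.57, 0.51, -0.82, -0.052, -0.21, -0.60 and -1.004, and its cyfluthrin samples 0.59, 1.03, 1.51, -0.061, 1.63, 1.52, 0.95 and 0.49. Control 2 was as high as the highest exposed samples and cyfluthrin 4 was among the controls, so the groups overlapped. Cyfluthrin samples exceeded controls by 1.19 ± 0.36 (SE) log2 units, a 2.28-fold rise (limma adjusted p = 0.0199). The spots of an array differed by an SD of 0.065, and spot noise gave the difference an SE of 0.0094. The rise passed the threshold neither on slide 1 (1.72, limma adjusted p = 0.103) nor on slide 2 (0.65, limma adjusted p = 0.437).

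The second rise, in contig_1380, was smaller and steadier. Controls read 2.36, 1.90, 1.88, 2.10, 1.70, 1.99, 2.37 and 2.01, and cyfluthrin samples 2.57, 2.71, 2.75, 2.26, 2.82, 2.61, 2.61 and 2.65. Apart from cyfluthrin 4, all exposed samples lay above all controls. The difference was 0.58 ± 0.12 (SE), which is 1.499-fold (limma adjusted p = 0.00271), with an SE of 0.0053 from spot noise. It was 0.55 on slide 1 (limma adjusted p = 0.203) and 0.62 on slide 2 (limma adjusted p = 0.0324).

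The largest fall past the threshold was that of the dim contig_2711, well above background on 9 of the 16 arrays. Controls read -3.61, -4.41, -2.62, -3.62, -2.86, -2.94, -3.96 and -4.35, and cyfluthrin samples -4.58, -4.72, -4.70, -5.39, -3.87, -4.72, -3.83 and -5.05. The groups overlapped through cyfluthrin 5 and 7 and controls 2, 7 and 8. The difference was -1.06 ± 0.29 (SE) (limma adjusted p = 0.0118) with an SE of 0.044 from spot noise. On slide 1 it was -0.73 (limma adjusted p = 0.226) and on slide 2 -1.39 (limma adjusted p = 0.0615).

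The second fall was that of contig_6524, a bright contig. Controls read 1.88, 1.19, 1.33, 1.21, 1.09, 1.69, 1.74 and 1.67, and cyfluthrin samples 1.17, 0.999, 0.54, 0.33, 0.64, 0.75, 0.19 and 0.63. The overlap came from cyfluthrin 1, above the lowest control. The difference was -0.82 ± 0.16 (SE) (limma adjusted p = 0.00215) with an SE of 0.0075 from spot noise. On slide 1 it was -0.73 (limma adjusted p = 0.199) and on slide 2 -0.90 (limma adjusted p = 0.0187).

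**Figure D4:**
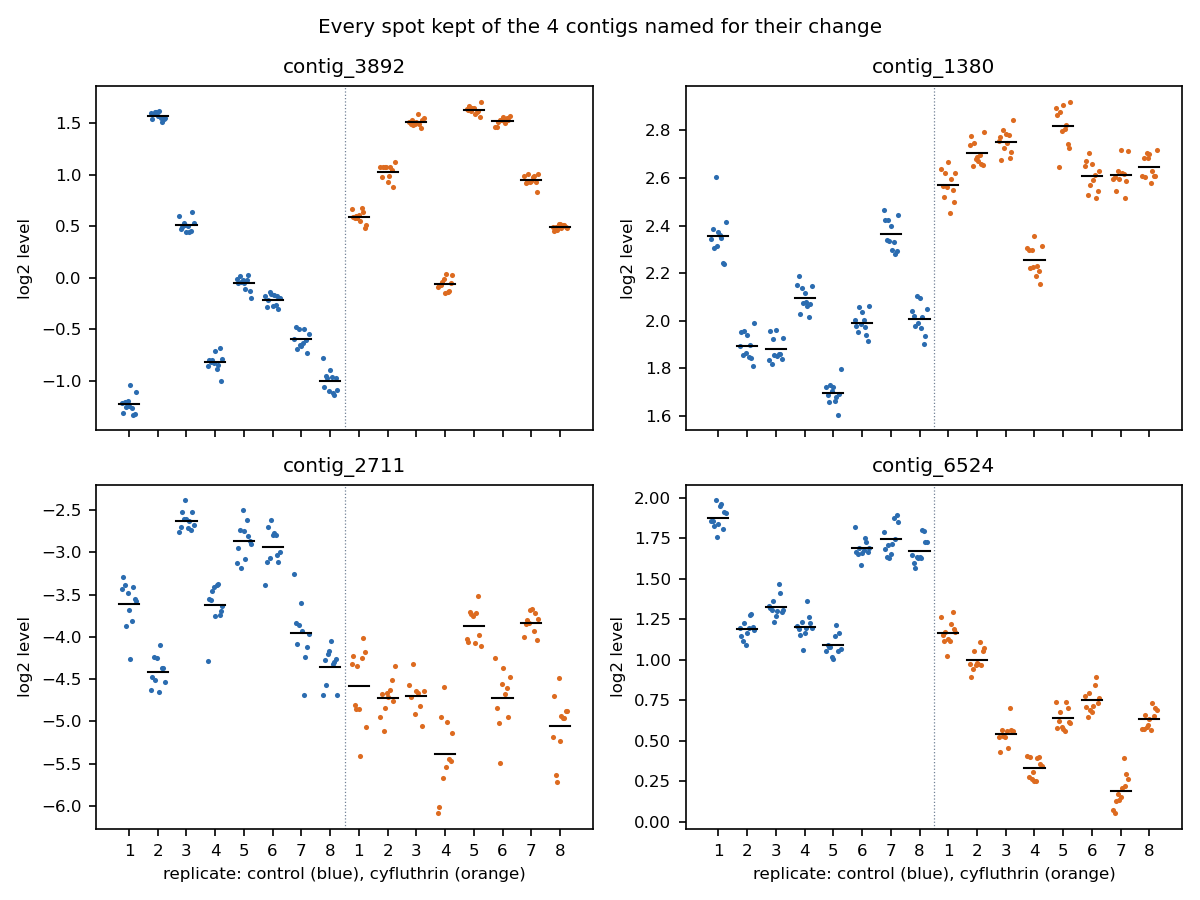
Log2 level of every spot kept on every array (points) and the mean of each array (black bars) for contig_3892, contig_1380, contig_2711 and contig_6524, with controls in blue and cyfluthrin samples in orange. The points of 1 array lie close together in contig_3892 (between-spot SD 0.065) and are scattered in the dim contig_2711 (0.288).

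The other 5 falls ran from -0.76 in contig_1184 to -0.41 (limma adjusted p from 0.00129 to 0.0450). The highest of these p-values was that of contig_1302, with a difference of -0.65 ± 0.24 (SE). Its controls ran from 1.96 to 3.40 and its cyfluthrin samples from 1.61 to 2.79, while spot noise gave the difference an SE of 0.0060.

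The group means differed beyond spot noise in most contigs, called or not. In 37 of the 39 contigs the difference was over 2 standard errors as computed from spot noise, and this held for all 9 called contigs. Spot noise leaves out the spread between samples, so this count is no sign of an effect of cyfluthrin. Of the 30 contigs not called, 16 had a larger difference than the smallest one called, 0.41. In contig_1411, singled out after its values were seen, the difference was -2.20 with an SE of 0.048 from spot noise and 0.84 from the samples (limma adjusted p = 0.0547). It passed without control 1 (-2.55, limma adjusted p = 0.0284), without cyfluthrin 4 (-2.61, limma adjusted p = 0.0244) and without cyfluthrin 7 (-2.60, limma adjusted p = 0.0273). The SE from the samples was 2.48 to 63.2 times that from the spots, with a median of 17.6.

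**Figure D5:**
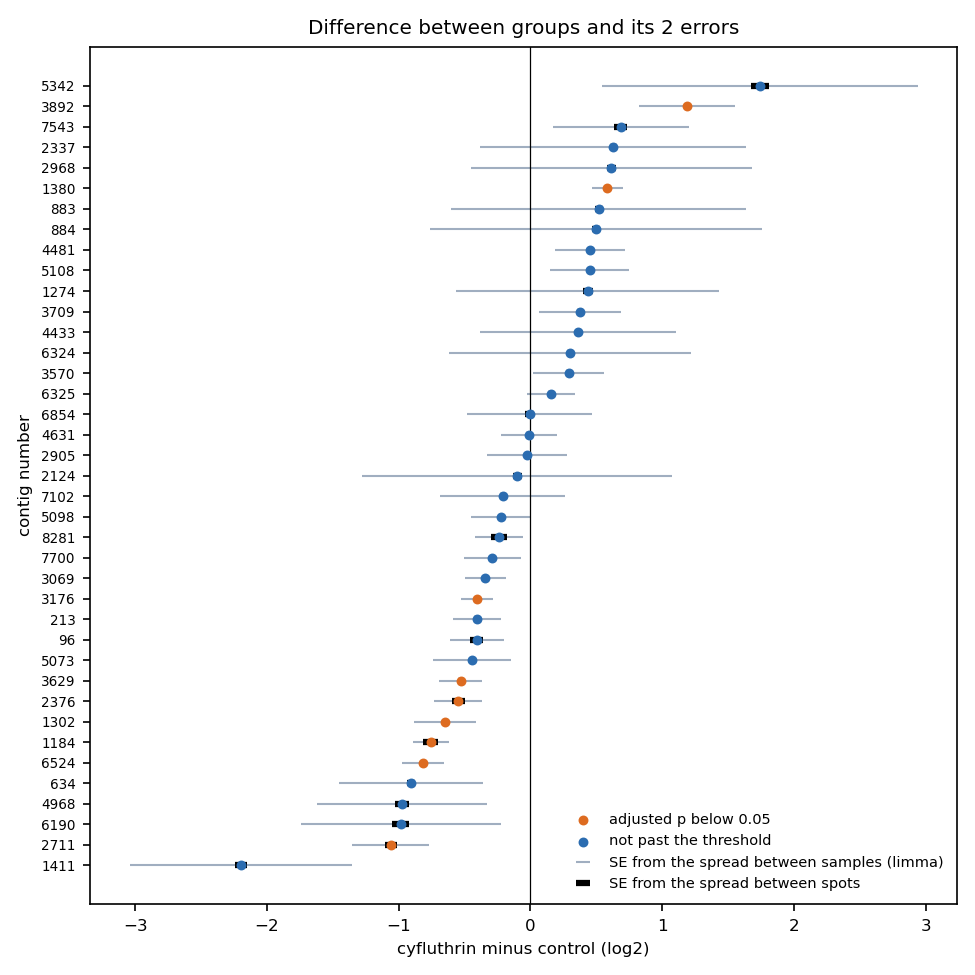
Difference between cyfluthrin and control in log2 units for the 39 tested contigs, with the SE from the spread between samples (thin grey bars) and from the spread between spots (thick black bars, often hidden by the point). The 9 orange points passed an adjusted p below 0.05, and the large difference of contig_1411, at -2.20, did not.

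The spots of each contig were also divided by rank into odd and even ones, as a repeat of the measurement on the same samples. The cyfluthrin difference from the odd spots differed from that of the even spots by a median of 0.021 log2 units and at most 0.26, and had the same sign in 38 of 39 contigs. Each set gave the same 9 calls as all spots together (31.3% of all tested contigs in either set). With the first spot alone 7 of the 9 contigs were called (31.2% of all), and with the first 2 spots 8 (32.6% of all), with no others in either case.

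The calls changed more with the scaling between arrays than with the number of spots. With each array scaled to its median, 2 contigs rose and 3 fell (12.7% and 12.9% of all tested contigs, 25.5% together). With quantile normalization 2 rose and 2 fell (10.0% and 14.2% of all, 24.2% together). With scaling to 7 of the 10 spike-in (E1A) probes, 4 rose and 0 fell (21.5% and 3.17% of all, 24.7% together), at a median difference of 0.28 over all tested contigs. Under 5 scalings, the main one, the median, the 75th percentile over contigs above background on all arrays, quantile and E1A, contig_1380 and contig_3892 were called each time. The falls of contig_2711 and contig_6524 kept their sign under E1A scaling (-0.62 and -0.38) and did not pass (limma adjusted p = 0.178 and 0.105). That of contig_3176 turned to 0.034 under E1A scaling (limma adjusted p = 0.909). Those of contig_3629, contig_2376 and contig_1302 were -0.089, -0.11 and -0.21 there (limma adjusted p = 0.736, 0.667 and 0.606). The fall of contig_2711 also missed the threshold with quantile normalization (-0.76, limma adjusted p = 0.0604) and in the authors' value table (-0.76, limma adjusted p = 0.0613). That of contig_1184 passed neither with quantile normalization (-0.35, limma adjusted p = 0.110) nor in the authors' value table (-0.34, limma adjusted p = 0.113). Under E1A scaling it was -0.32 and did not pass (limma adjusted p = 0.128).

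The arrays lay on 2 slides with 4 of each group on each. Within slide 1, limma called 0 of the 39 contigs and 0.00% of all contigs, while 7 of the 39 had an unadjusted p below 0.05 (22.3% of all). Within slide 2 it called 3 (14.2% of all), 1 of them higher (4.44% of all) and 2 lower (9.81% of all). A test of the difference in effect between the slides called 0 of the 39, with 3 at an unadjusted p below 0.05 (3.30% of all). Cyfluthrin arrays alone, those of replicates 2, 3, 7 and 8, stood in column 3 of both slides. With a column term the group difference therefore rests on cyfluthrin 1, 4, 5 and 6 only. With the column as a covariate 7 of the 39 contigs were called (23.8% of all), 3 of them higher (6.68% of all) and 4 lower (17.1% of all), and 4 of the 7 were among the 9. The others were contig_5342 (4.87, limma adjusted p = 0.00425), contig_7543 (1.81, limma adjusted p = 0.00747) and contig_5073 (-0.97, limma adjusted p = 0.0465). In contig_5342 the exposed samples that carry this estimate were the high ones. The rise of contig_3892 was then 1.29 and did not pass (limma adjusted p = 0.0652). Over the 50 contigs cyfluthrin 5 and 6 were the closest arrays. With cyfluthrin 6 alone kept of this pair, the column term also ended the calls of contig_1380 (0.44, limma adjusted p = 0.0973) and contig_6524 (-0.73, limma adjusted p = 0.0744). With cyfluthrin 5 alone kept it ended those of contig_1380 (0.51, limma adjusted p = 0.0831), contig_6524 (-0.78, limma adjusted p = 0.0659) and contig_2711 (-1.03, limma adjusted p = 0.0912).

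The spread between spots was compared between the groups over samples. Its root mean square over the 50 contigs was 0.290 ± 0.066 (SD, n = 8) on control and 0.281 ± 0.063 (SD, n = 8) on cyfluthrin arrays, a difference well within the spread over arrays (p = 0.781 in a two-sided exact permutation test of 12870 splits; 0.932 after adjustment for 2 measures). The share of marked spots was 2.56% ± 1.12 (SD, n = 8) on control and 2.49% ± 1.01 (SD, n = 8) on cyfluthrin arrays (p = 0.932 by the same exact test, before and after adjustment). Over the 21 contigs above background on all arrays, the spread was 0.128 ± 0.041 (SD, n = 8) on control and 0.0947 ± 0.0156 (SD, n = 8) on cyfluthrin arrays (exact permutation p = 0.0312, not adjusted). Leaving out each array in turn gave p from 0.0135 to 0.0678, over 0.05 for 8 of the 16 arrays. Without control 1, whose spread of 0.212 was the widest, the difference was -0.021 (exact permutation p = 0.0589). The unscaled 75th percentile of signal was lower on control arrays, at 7.04 ± 0.45 (SD, n = 8) log2 units against 7.75 ± 0.20 (SD, n = 8), and its part in the difference was not tested.

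Each of the 120 pairs of arrays was compared over the 50 contigs, as the mean squared difference over the value that spot noise alone predicts. Cyfluthrin 5 and 6, which lay on different slides, were the closest pair at 14.2 times the prediction. The next pair, cyfluthrin 3 and 8, lay at 21.4 times, the median pair at 217 times and the farthest at 653 times. Over the 21 contigs above background on all arrays, however, cyfluthrin 5 and 6 lay at 69.1 times the prediction. Controls 1 and 8 (44.5 times) and controls 2 and 3 (64.4 times) were closer there. By the mean squared difference itself, cyfluthrin 5 and 6 (0.108) were closer than those pairs (0.257 and 0.133). In 21 of the 50 contigs cyfluthrin 5 and 6 differed by no more than 1.96 standard errors of spot noise, against 1 to 17 contigs in the other pairs. Beyond that bound, 20 contigs were higher in cyfluthrin 6 and 9 lower. The largest gap was that of contig_213, at -3.11 in cyfluthrin 5 and -1.77 in cyfluthrin 6. The pair differed by more than the spots, the limit set for counting both arrays as samples. Spot noise contains no labelling of the RNA, so whether the arrays hold separate samples or a repeat of 1 RNA cannot be told apart by this comparison, and n = 8 for cyfluthrin may count 1 RNA more than once. Counted as 1 sample, they gave 9 calls again (30.0% of all tested contigs), 2 of them higher (7.47% of all) and 7 lower (22.5% of all), with contig_213 in place of contig_1302.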

How the data were processed

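Whole-body RNA of 16 samples was hybridised to 1 array each. The software was Agilent Feature Extraction, version 11.5.1.1 per the file headers and 9.1 per the submitters' processing notes. The deposited intensity of a spot is the processed signal, with background subtracted array by array and no scaling across arrays. The authors' value table, whose deposited values lie on a log2 scale centred on each probe, served as an alternative. For other steps, tools were not given in the sources used here.

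Control spots and spots marked as outliers were left out and saturated spots kept. Log2 processed signal was reduced by the 75th percentile of each array (control spots excluded) before averaging within each contig. Contigs that passed the background on at least 8 of 16 arrays were tested with limma 3.58.1 in R 4.3.3 (lmFit, eBayes), with Benjamini-Hochberg adjustment over 6852 contigs and a threshold of 0.05. Variance between spots, samples and groups was estimated by moments in python 3.11.15 with numpy 2.4.6. Where a contig's spots differed alike on all arrays, that fixed part was taken out of the noise. Single values per array were compared by exact permutation tests. The steps were tested on simulated data. The number of arrays limits the precision.

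The design counted cyfluthrin 5 and 6 as 1 sample only if they differed by no more than their spots, which they did not. Spot noise contains no labelling noise, so this rule cannot tell a repeat of 1 RNA from a separate sample. Replicate numbers are shared by the groups but do not pair the samples. Contigs were named by rule: the 2 largest called rises and falls, the 2 widest and narrowest spot spreads, and the highest and lowest noise share. Others were named after their values were seen. The contigs, lists and tests were chosen with earlier results of these data known. Alternatives were other scalings, normexp background correction (offset 50), filters, spot summaries, slide, column and replicate terms, and samples left out.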

Additional observations from a re-analysis of the deposited data

Results flagged for a closer look

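Samples far from the rest of their group were looked for in 24 sets of values, where chance marks about 1 in 20, and 4 were found. The level of contig_6150 in control 5 was -3.00, against -5.47 to -4.51 in the other controls. The share of marked spots on the array of control 1 was 4.97%, against 1.66% to 3.13% on the other control arrays. The level of contig_1380 in cyfluthrin 4 was 2.26, while the rest of its group ran from 2.57 to 2.82. That of contig_4433 in cyfluthrin 2 was -3.70 and the rest ran from -0.24 to 1.65.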

How the results depend on the processing

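The count of 9 called contigs lay between 7 and 10 without each sample in turn. It was 5 with median scaling, 4 with quantile normalization, 4 with E1A scaling, 4 with the authors' table (24.1% of all tested contigs) and 18 with normexp correction (57.8% of all), which called 2 rises and 16 falls. Normexp correction also called contig_1411 (-1.02, limma adjusted p = 0.0145). The count was 0 on slide 1 and 3 on slide 2. With no background filter it was 12 of the 50 (34.6% of all), 2 rises (7.14% of all) and 10 falls (27.5% of all). These falls included contig_2256 (-0.95, limma adjusted p = 0.00448) and contig_7105 (-0.74, limma adjusted p = 0.0137), above background on no array. Among contigs above background on all arrays it was 6 of 21 (38.3% of all). Outside this filter lay contig_1184, contig_2376 and contig_2711. Samples with the same replicate number correlated between -0.67 and 0.47, and in 0 of 8 cases best with each other. With the replicate block 5 were called (22.6% of all), and with replicate 6 or replicate 5 standing for the alike pair 5 (14.2% of all) and 4 (13.8% of all), where contig_1380 did not pass (0.51 and 0.58, limma adjusted p = 0.0565 and 0.0566). With the column as a covariate and either array standing for the pair, 4 were called each time (10.99% and 16.8% of all). Without controls 1 and 8 and cyfluthrin 2 there were 8 (1 rise, 7 falls, 29.7% of all), contig_1411 passed (-2.36, limma adjusted p = 0.0382) and contig_3892 did not pass (0.88, limma adjusted p = 0.0914). It also did not pass without cyfluthrin 5 and 6 (0.98, limma adjusted p = 0.0779). The fall of contig_1302 missed the threshold under 29 alternatives and kept its sign in all 45. The difference of contig_4433 turned to -0.16 on slide 1. The group difference in between-spot SD, -0.0089, was -0.033 over the contigs above background on all arrays and turned to 0.0082 on slide 2. Without single samples it ran from -0.027 to 0.0061, turning positive without control 1, control 7 or cyfluthrin 5. The noise share of 0.277% rose to 0.454% with marked spots kept and lay between 0.264% and 0.336% without single samples. Causes of these changes were not tested. Dim contigs limit what can be said, since 11 of the 50 were not tested and 7.01% of spot measurements were floor values.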
